A study of Mus musculus with 14 samples.

Results

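The 10 genes of the activity-induced immediate early class were followed across the CA3 field of the adult mouse hippocampus: Fos, Fosb, Junb, Egr1, Arc, Nr4a1, Dusp1, Ier2, Ier3 and Gadd45g. They were taken by gene symbol from the array's annotation, 10 of the 16593 named genes on the array, and they carried 11 of its 25697 probes. A probe entered the tests where its detection p-value, the share of negative control beads at least as bright, was under 0.05 on 4 or more arrays. By that rule 9 of the 11 probes, for 8 of the 10 genes, were tested among 12140 probes in all.

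The study measured total RNA from the microdissected CA3 pyramidal region on 14 Illumina bead arrays. The 5 wild-type arrays (WT, animals 142, 144, 145, 199 and 206) carry CA3 taken as a single undivided piece. In the mutants, which carry a doublecortin (Dcx) mutation, the CA3 pyramidal cells lie in a split band, and its external (outer) layer, SPE, and its internal (inner) layer, SPI, were taken separately. SPE has 5 arrays (animals 146, 147, 148, 165 and 166) and SPI has 4 (animals 146, 147, 148 and 166), so 4 mutant mice gave both layers. All mice were adults of the Sv129Pas background, and neither sex nor handling before dissection is given in the labels. Each RNA came from pooled dissected pieces and not from sorted cells, so fewer cells of a type and less RNA per cell cannot be told apart. WT has no dissected inner or outer layer of its own, and therefore the position of the tissue and the genotype cannot be told apart in a comparison of one layer with WT. In the labels of the SPE arrays one bracketed code names the inner layer while the words and the titles name the outer one, and the titles were followed.

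Immediate early genes are transcribed within minutes of a rise in neuronal calcium or growth factor signalling, without new protein synthesis. Calcium channels, NMDA receptors and the MAP kinase cascade activate factors already bound at their promoters, among them CREB at cyclic AMP response elements and the serum response factor. Some of the genes encode transcription factors (Fos, Fosb, Junb, Egr1, Nr4a1) and another encodes a synaptic effector (Arc). Others encode brakes on signalling or stress regulators (Dusp1, Ier3, Gadd45g), and Ier2 encodes a growth factor-induced nuclear protein. In the hippocampus they are widely used as a record of recent firing, and their transcripts are short-lived, so the interval before dissection also sets their level.

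Promoter sequences are shown for members with a tested probe, to set those called higher in SPI beside those that were not. They are the 250 bases before the annotated start, 5′ to 3′ in the direction of transcription, from RefSeq on GRCm38.p6. RefSeq's table held 7 of the 10 members, and Egr1, Arc and Ier2 were not among them. Capitals mark TGACG, the core of the cyclic AMP response element, on either strand, where the other strand reads CGTCA. The windows are chr12:85473640-85473889 (plus strand) for Fos, chr7:19310046-19310295 (minus) for Fosb, chr8:84978749-84978998 (minus) for Junb, chr17:26508473-26508722 (minus) for Dusp1, chr17:35821463-35821712 (plus) for Ier3 and chr13:51846425-51846674 (plus) for Gadd45g.
Fos: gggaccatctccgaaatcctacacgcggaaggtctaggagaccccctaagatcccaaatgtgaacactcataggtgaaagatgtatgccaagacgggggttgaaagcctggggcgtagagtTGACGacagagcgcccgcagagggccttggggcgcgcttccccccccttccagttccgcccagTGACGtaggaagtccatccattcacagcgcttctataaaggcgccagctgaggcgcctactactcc
Fosb: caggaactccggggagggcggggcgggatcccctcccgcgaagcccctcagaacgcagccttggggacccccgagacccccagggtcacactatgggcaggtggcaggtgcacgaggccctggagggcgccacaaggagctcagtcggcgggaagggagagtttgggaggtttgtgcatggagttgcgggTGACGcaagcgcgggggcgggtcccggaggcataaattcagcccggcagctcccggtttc
Junb: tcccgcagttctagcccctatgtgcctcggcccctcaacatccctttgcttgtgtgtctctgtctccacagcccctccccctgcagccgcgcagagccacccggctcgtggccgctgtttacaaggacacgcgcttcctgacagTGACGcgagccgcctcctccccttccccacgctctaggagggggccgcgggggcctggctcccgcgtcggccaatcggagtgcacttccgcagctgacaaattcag
Dusp1: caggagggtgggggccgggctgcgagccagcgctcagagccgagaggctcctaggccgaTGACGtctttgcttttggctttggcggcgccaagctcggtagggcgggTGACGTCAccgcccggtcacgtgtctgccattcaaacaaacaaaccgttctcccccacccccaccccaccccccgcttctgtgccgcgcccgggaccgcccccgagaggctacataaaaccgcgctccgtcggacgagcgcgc
Ier3: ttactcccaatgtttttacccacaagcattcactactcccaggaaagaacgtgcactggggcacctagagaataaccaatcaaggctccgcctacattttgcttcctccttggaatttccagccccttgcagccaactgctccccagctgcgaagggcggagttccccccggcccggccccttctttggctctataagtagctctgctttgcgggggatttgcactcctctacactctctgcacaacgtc
Gadd45g: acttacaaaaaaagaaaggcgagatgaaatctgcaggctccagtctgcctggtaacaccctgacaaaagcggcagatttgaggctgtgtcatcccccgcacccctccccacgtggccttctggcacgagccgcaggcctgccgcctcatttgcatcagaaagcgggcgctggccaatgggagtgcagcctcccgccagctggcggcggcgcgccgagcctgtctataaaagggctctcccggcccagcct

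TGACG was present in 5 of the 7 member windows, Dusp1, Fos, Fosb, Junb and Nr4a1, against 17.8% of all 32851 windows of that length. Fos held it from 66 to 62 and from 129 to 125 bases before the start, Fosb from 60 to 56, and Junb from 106 to 102. Dusp1 alone of the 7 held the full palindrome TGACGTCA, from 143 to 136 bases before the start; it overlaps 2 of the 3 TGACG matches there, and 1.55% of all windows held it. Neither the Ier3 nor the Gadd45g window held TGACG. The CArG box of the serum response factor (1.47% of all windows), GCGTGGGCG of the Egr family (0.536%) and TGANTCA of the AP-1 dimers of Fos and Jun proteins (6.75%) were each searched on both strands and were in none of the 7 windows. The matches describe letters only. Sites further from the start, and the promoters of Egr1, Arc and Ier2, were not searched, so a motif absent here may lie elsewhere.

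The arrays differed in brightness along the groups. Mean raw bead signal was 371 to 515 on the WT arrays, 279 to 482 on the SPE arrays and 119 to 362 on the SPI arrays, and the probes detected per array ranged from 11303 to 11988, from 10123 to 11843 and from 8413 to 11406. The dimmest arrays were SPI of animal 147 (119), SPI of animal 148 (231) and SPE of animal 148 (279). Dcx itself has 3 probes. ILMN_2931623 was detected on all 5 WT arrays, 4 of 5 SPE arrays and 0 of 4 SPI arrays and was lower in SPI than WT by limma (log2 difference -0.86 ± 0.17 SE, adjusted p = 0.0030). ILMN_1228206 was detected on 5, 5 and 3 arrays (-0.43 ± 0.23, limma adjusted p = 0.18) and ILMN_1256251 on none. No label gives where the probes lie relative to the mutation, so they do not check the genotype.

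Signals below are on the log2 scale after background correction and quantile normalisation, and each difference is a limma estimate with its standard error and a p adjusted by the Benjamini-Hochberg method over all 12140 probes. A probe was called at an adjusted p under 0.05. Levels of different probes are not compared, since probes bind with different strength.

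Comparing the inner mutant layer with WT asks how that layer differs from normal CA3. Ier3, Gadd45g, Dusp1 and Arc rose in SPI, by 1.89, 1.66, 1.60 and 1.45-fold, a direction that turned for all 4 when arrays were scaled to the median of all 25697 probes. The classic transcription factors Fos, Fosb, Junb and Egr1 passed the test in neither direction. Of the 9 member probes, 4 were called higher and 0 lower. Among all probes 11.5% were called higher, 14.6% lower and 26.1% in either direction, so a call was not rare in this comparison. The median member difference was 0.053 and that of all probes -0.016. The same 4 member probes had every SPI array above every WT array, as did 10.7% of all probes, while 12% of all probes had every SPI array below every WT array.

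The direction depended on the scaling of the arrays. Per array, 8413 to 11988 of the 25697 probes were detected. The median of all probes therefore fell among undetected probes on every array. Scaling to it set the arrays equal at undetected probes and not at detected ones. Under it 24 probes were called higher and 5878 lower in SPI against WT. Whether array brightness turned the signs was not tested. The median of all tested probes in SPI minus WT was -0.016 with quantile normalisation, 0.34 with scaling to the median of the probes detected on all arrays, a setting chosen after seeing the data, and -0.86 with scaling to the median of all probes. Relative to that median, Arc stood higher by 0.55, 0.20 and 0.21, Dusp1 by 0.69, 0.33 and 0.34, Gadd45g (ILMN_2903945) by 0.75, 0.38 and 0.39, and Ier3 by 0.93, 0.58 and 0.58. These 4 probes, singled out by their calls under quantile normalisation, lay above the median probe under each of the 3 scalings. The median scalings differ only by a constant per array, which shifts all probes alike. Their distances from the median probe are therefore nearly the same by construction and do not count as separate checks. Egr1 lay above the median probe by 0.069 with quantile normalisation and below it, at -0.21, with both median scalings. Fos, Fosb, Junb and Gadd45g (ILMN_2744890) lay below it under all 3.

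**Figure D1:**
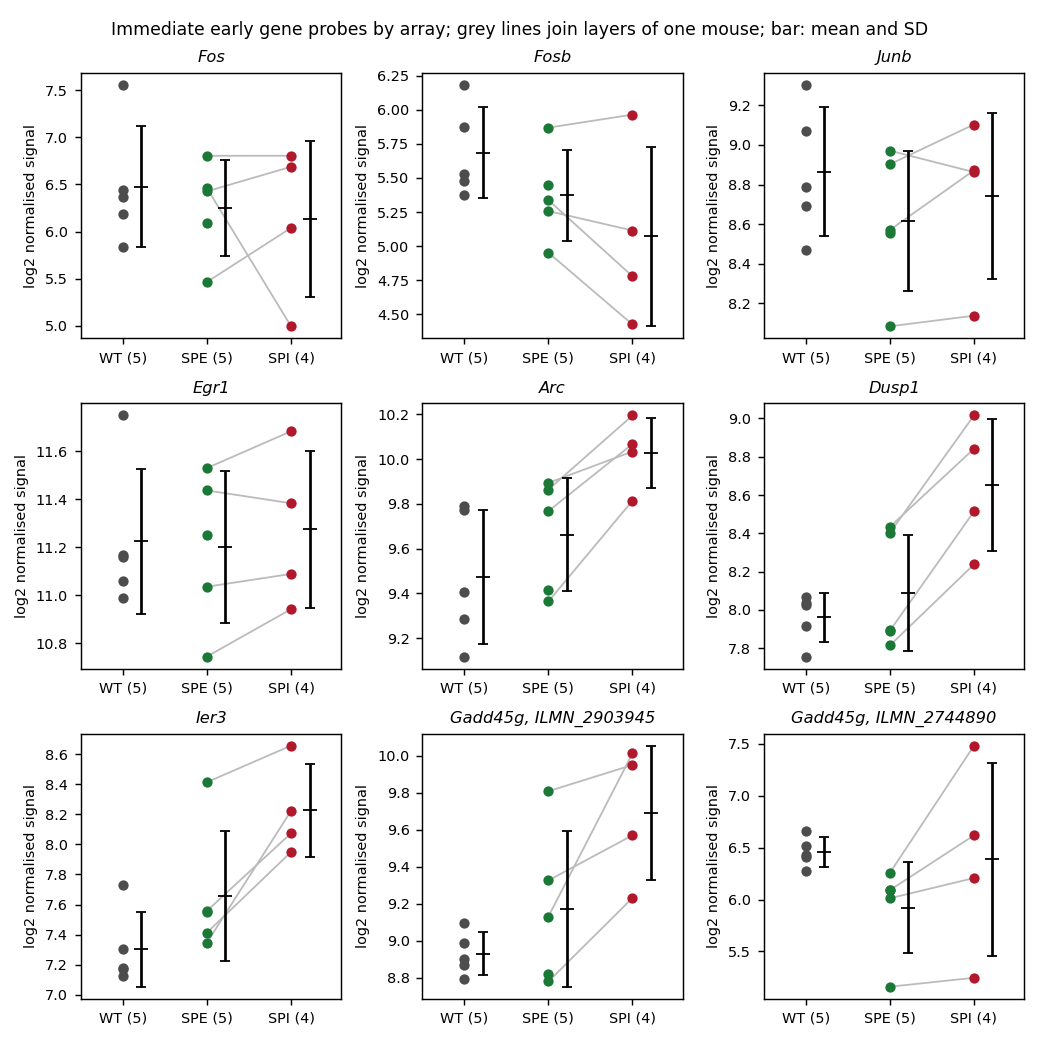
Normalised log2 signal (y axis) of the 9 tested member probes on each of 14 arrays, by group (x axis, number of arrays in brackets); points are arrays, grey lines join the layers of one mouse, and the bar is the mean with its SD. The SPI points of Arc, Dusp1, Ier3 and Gadd45g ILMN_2903945 all lie above the WT points under quantile normalisation, an order that turned on average under scaling to the median of all probes.

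Among the brakes and stress regulators, Ier3, which encodes an inhibitor of NF-kappa B and of apoptosis induced early by stress and growth factors, showed the widest member difference. Its log2 signal on the WT arrays was 7.18, 7.73, 7.13, 7.17 and 7.30 (animals 142, 144, 145, 199 and 206), on the SPE arrays 7.41, 7.35, 8.41, 7.55 and 7.56 (animals 146, 147, 148, 165 and 166), and on the SPI arrays 7.95, 8.22, 8.66 and 8.07 (animals 146, 147, 148 and 166). Each SPI array exceeded the highest WT array, while the SPE array of animal 148 reached into the SPI range and the other SPE arrays lay within the WT range. The group means were 7.30 ± 0.249 (SD, n = 5), 7.66 ± 0.433 (n = 5) and 8.23 ± 0.309 (n = 4). SPI exceeded WT by 0.92 ± 0.20 by limma (adjusted p = 0.00503), a sign that turned to -0.28 under scaling to the median of all probes.

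Dusp1 encodes a nuclear phosphatase that switches off the MAP kinases. Its WT arrays read 7.76, 8.02, 8.07, 7.92 and 8.04, its SPE arrays 7.81, 7.89, 8.40, 7.89 and 8.43, and its SPI arrays 8.24, 8.51, 9.02 and 8.84, in the same order of animals. WT was tight (SD 0.127, n = 5) and SPE spread more (SD 0.304, n = 5), with animals 148 and 166 high in both layers. SPI exceeded WT by 0.68 ± 0.16 by limma (adjusted p = 0.00773), which became -0.52 under scaling to the median of all probes.

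Gadd45g encodes a small stress sensor that binds MAP kinase kinase kinases and takes part in DNA demethylation. With ILMN_2903945 the WT arrays read 8.99, 9.10, 8.90, 8.87 and 8.79, the SPE arrays 8.78, 9.13, 9.81, 8.82 and 9.33, and the SPI arrays 9.23, 10.01, 9.95 and 9.57. No SPI array overlapped WT, and SPI exceeded WT by 0.73 ± 0.19 by limma (adjusted p = 0.0137), or -0.47 under scaling to the median of all probes. With ILMN_2744890 the WT arrays read 6.28, 6.66, 6.43, 6.41 and 6.52, the SPE arrays 6.01, 6.26, 5.16, 6.09 and 6.09, and the SPI arrays 6.21, 7.48, 5.25 and 6.62. The second probe thus did not follow the first: its SPI arrays scattered on both sides of WT (SD 0.929, n = 4), animal 148 was low in both layers where the first probe was high, and SPI minus WT was -0.057 ± 0.304 by limma (adjusted p = 0.906). Across the 14 arrays the correlation of the 2 probes was -0.12, a description that shares the arrays' brightness. The rise of Gadd45g therefore rests on 1 of its 2 probes.

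Arc encodes a synaptic protein that drives removal of AMPA receptors and whose messenger travels to active dendrites. Its WT arrays read 9.12, 9.28, 9.41, 9.79 and 9.77, its SPE arrays 9.36, 9.77, 9.89, 9.42 and 9.86, and its SPI arrays 9.81, 10.07, 10.03 and 10.20. The lowest SPI array read 9.81 and the highest WT array 9.79, so the groups were barely apart. SPI exceeded WT by 0.53 ± 0.16 by limma (adjusted p = 0.0249), or -0.65 under scaling to the median of all probes. The call was lost without WT animal 142 (0.45, adjusted p = 0.0620), 144 (0.49, 0.0553) or 145 (0.52, 0.0529) and without the 3 dimmest arrays (0.53, 0.0781).

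Egr1, a zinc finger transcription factor that responds to MAP kinase signalling, was detected on every array. Its raw signal was 317 on the SPI array of animal 147, the dimmest array, and 1753 to 5025 on the others. Its WT arrays read 11.75, 11.17, 10.99, 11.06 and 11.16, its SPE arrays 10.74, 11.04, 11.53, 11.25 and 11.44, and its SPI arrays 10.94, 11.09, 11.68 and 11.38. The groups overlapped throughout, and WT animal 142 stood above the other WT animals. SPI minus WT was 0.053 (95% interval -0.34 to 0.45; limma adjusted p = 0.857), a sign that turned without WT animal 145 (-0.0051), without the SPI array of animal 148 (-0.082) and under scaling to the median of all probes (-1.07).

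Fos, the partner of Jun proteins in the AP-1 factor, was highest on the array of that same WT animal 142. Its WT arrays read 7.55, 6.19, 5.83, 6.45 and 6.37, its SPE arrays 5.46, 6.46, 6.43, 6.09 and 6.80, and its SPI arrays 6.04, 4.99, 6.69 and 6.80. The SPI array of animal 147, the dimmest of all, did not detect it (p = 0.115 by the bead detection test, not a limma or permutation test). SPI minus WT was -0.36 (95% interval -1.19 to 0.47; limma adjusted p = 0.526), an interval that holds differences of more than 1 log2 unit, and it became 0.043 without that array and 0.22 under scaling to the median of detected probes.

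Fosb, another AP-1 subunit whose stable splice form builds up with repeated activity, read 6.18, 5.38, 5.47, 5.53 and 5.87 in WT, 5.34, 5.26, 4.95, 5.45 and 5.87 in SPE, and 4.78, 5.11, 4.43 and 5.96 in SPI. It was detected on 5 of 5 WT arrays, 4 of 5 SPE arrays and 2 of 4 SPI arrays. SPI minus WT was -0.61 ± 0.25 (limma adjusted p = 0.0823). It passed the limma test without SPI animal 166 (-0.86, 0.0114), with array weights (-0.66, 0.0387) and under scaling to the median of all probes (-0.94, 0.0301). That last scaling called 5878 of all 12140 probes lower and 24 higher, and under it Fosb lay at only -0.079 relative to the median probe. Under scaling to the median of detected probes the difference of Fosb turned to 0.26. The SPI arrays that did not detect it, of animals 147 and 148, were the dimmest of all. With array brightness as a covariate, or without the dimmest arrays, Fosb stayed lower in SPI without passing. Whether low brightness is the cause of this difference was not tested.

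Junb, an AP-1 subunit that often opposes Jun, read 8.79, 8.69, 8.47, 9.07 and 9.30 in WT, 8.08, 8.90, 8.97, 8.56 and 8.57 in SPE, and 8.14, 9.10, 8.86 and 8.87 in SPI. The mutant mouse 146 was the lowest in both layers, and the groups overlapped. SPI minus WT was -0.13 (95% interval -0.57 to 0.32, limma adjusted p = 0.687), and under scaling to the median of all probes it was -1.36 and called lower (limma adjusted p = 0.0157). That scaling called 5878 of all 12140 probes lower, and under it Junb lay at -0.51 relative to the median probe.

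Nr4a1, an orphan nuclear receptor, and Ier2, a growth factor-induced nuclear protein, gave only a bound. Both were detected on 0 of 14 arrays, with raw signals of 79.1 to 101 and 81.4 to 109, and no fold was formed from them. Their state in these tissues was not detectable with these probes.

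**Figure D2:**
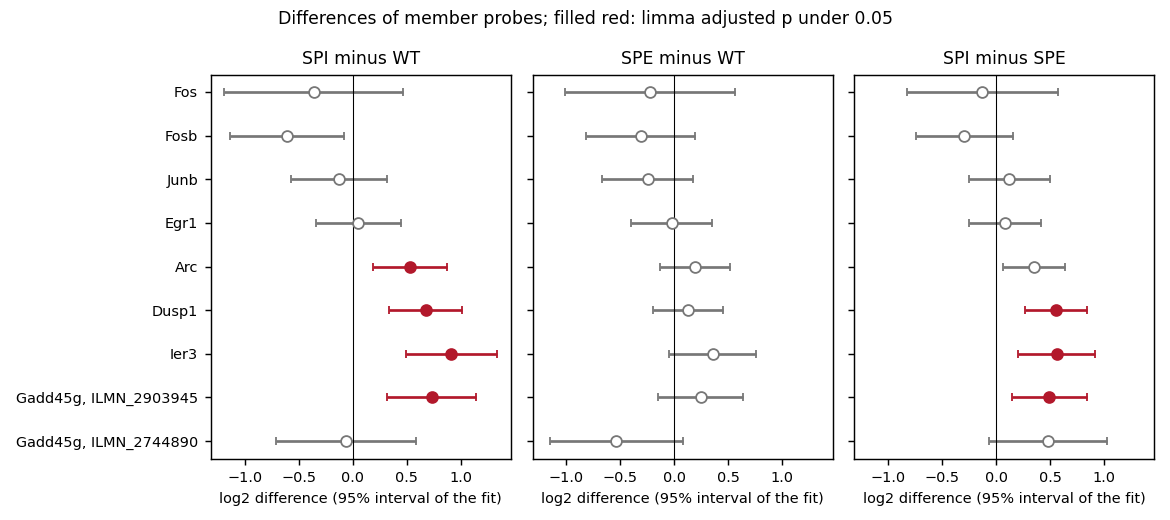
Log2 differences (x axis) of the 9 tested member probes (y axis) in 3 comparisons, with 95% intervals of the limma fit; filled red points passed an adjusted p under 0.05. Arc, Dusp1, Ier3 and Gadd45g ILMN_2903945 passed in SPI minus WT, with signs that turned under scaling to the median of all probes, none passed in SPE minus WT, and 3 passed in SPI minus SPE, whose signs turned likewise.

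Comparing the outer layer with WT asks whether that layer departs from normal CA3, and it uses the same WT arrays as above. No member was called, and by limma none of the 12140 probes was (0%). At an unadjusted p under 0.05 there were 0 member probes and 487 of all probes (4.01%). Member differences ran from -0.54 ± 0.29 for Gadd45g ILMN_2744890 to 0.35 ± 0.19 for Ier3 (limma adjusted p from 0.891 to 0.984). The former probe alone had all SPE arrays below all WT arrays, as did 1.18% of all probes. The 95% intervals for the probes called in SPI were -0.14 to 0.51 for Arc and -0.20 to 0.45 for Dusp1. They were -0.15 to 0.63 for Gadd45g ILMN_2903945 and -0.05 to 0.76 for Ier3. Under quantile normalisation the SPI minus WT estimates of these probes lay above the upper limits, for Arc barely (0.53 against 0.51). Those estimates have their own error and share the WT arrays, so this does not test whether the layers differ. The direct comparison of the layers follows, and Arc did not pass in it.

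Comparing the layers within the mutants asks how SPI and SPE differ where genotype is shared. Dusp1, Ier3 and Gadd45g ILMN_2903945 rose in SPI over SPE, by 0.55 ± 0.14 (limma adjusted p = 0.0112), 0.56 ± 0.17 (0.0277) and 0.49 ± 0.16 (0.0444), signs that turned under scaling to the median of all probes. Thus 3 of the 9 member probes were called higher and 0 lower, against 9.53% of all probes called higher, 12.2% lower and 21.7% in either direction. Arc differed by 0.35 ± 0.14 without passing (adjusted p = 0.0789 by limma). All 9 members overlapped between the layers, as did all but 9.32% of probes.

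The 4 mice that gave both layers show the same members animal by animal. Arc was higher in SPI than in SPE of the same mouse by 0.45, 0.30, 0.14 and 0.33 (animals 146, 147, 148 and 166). Dusp1 was higher by 0.42, 0.62, 0.61 and 0.41 (mean 0.52 ± 0.117 SD, n = 4). Ier3 was higher by 0.54, 0.88, 0.24 and 0.52. These 3 were higher in SPI in 4 of 4 mice with quantile normalisation and with scaling to the median of detected probes, and in 1 (Arc), 2 (Dusp1) and 2 (Ier3) of 4 with scaling to the median of all probes. Both Gadd45g probes were also higher in SPI in 4 of 4 mice, with means of 0.43 ± 0.328 and 0.51 ± 0.514, which became 1 and 2 of 4 under scaling to the median of all probes, so within mice the second probe had the sign of the first under quantile normalisation although it did not against WT. Of all probes 15.5% were higher in SPI in all 4 mice with quantile normalisation. That share was not counted under the median scalings. There the SPI minus SPE median of all tested probes was 0.27 (scaling to detected probes) and -0.71 (scaling to all probes). Egr1 and Junb were higher in SPI in 3 of 4 mice (1 and 0 of 4 under scaling to the median of all probes) and Fosb in 1 of 4 (3 of 4 under scaling to the median of detected probes), and Fos gave 0.57, -1.47, 0.26 and 0.00, the negative value coming from the array on which Fos was not detected.

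The layer calls were less firm than those against WT. With animal as a fixed block over the 4 pairs, limma called 0 of the 3 (Dusp1 0.52, adjusted p = 0.0661; Ier3 0.54, 0.0900; Gadd45g 0.43, 0.169). Without any block 1 remained, Dusp1, with Ier3 at an adjusted p of 0.0948 and Gadd45g at 0.110 by limma, and without the SPI array of animal 148 none remained (Dusp1 0.45, limma adjusted p = 0.109). The Gadd45g call was lost in 19 of 29 alternatives, among them without any single WT array (0.49, with limma adjusted p from 0.0525 to 0.0552) and without the SPE array of animal 146, 147, 165 or 166 or the SPI array of animal 147 (0.35 to 0.54), and the Ier3 call in 11 of 29, among them without the SPE array of animal 146 (0.52, 0.0688), 165 (0.54, 0.0517) or 166 (0.55, 0.0547).

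**Figure D3:**
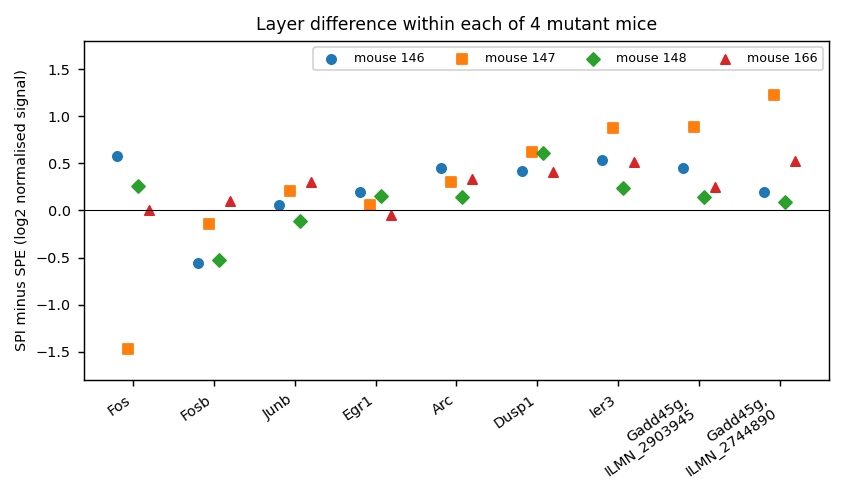
SPI minus SPE of normalised log2 signal (y axis) within each of the 4 mutant mice (symbols) for the 9 tested member probes (x axis). Arc, Dusp1, Ier3 and both Gadd45g probes lie above 0 in all 4 mice under quantile normalisation, directions that turned in the fit under scaling to the median of all probes, and Fos ranges from -1.47 to 0.57.

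Array brightness moved with the layers. With log2 mean raw signal of the array as a covariate, 0 member probes were called in SPI against WT or in SPI against SPE, and the SPI minus WT differences were 0.65 for Ier3 (limma adjusted p = 0.121), 0.58 for Dusp1 (0.107), 0.41 for Arc (0.232) and 0.34 for Gadd45g ILMN_2903945 (0.322). Over all probes the calls went from 3172 to 577 in the first comparison and from 2637 to 873 in the second. SPI arrays span the lowest part of the brightness range, so the covariate and the layer overlap.

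Markers of other cells also moved with SPI, and their part in the member differences was not tested. In SPI against WT, limma called higher 7 and lower 0 of 18 astrocyte probes, 13 and 0 of 22 myelin probes, 7 and 0 of 12 microglia probes and 11 and 3 of 17 interneuron probes. Over all probes 11.5% were called higher and 14.6% lower, shares that also stand beside the marker counts below. The summed linear level of the astrocyte probes was 7791 to 8761 in WT, 8505 to 9362 in SPE and 13008 to 17907 in SPI. That of the myelin probes was 6145 to 8472, 7481 to 8124 and 11908 to 21412, of the microglia probes 560 to 670, 665 to 761 and 1046 to 1450, and of the interneuron probes 14208 to 16237, 12682 to 13982 and 19949 to 23710. The SPI sums lay above the WT and SPE sums for each of these 4 lists under quantile normalisation. The number of probes above the median difference of all probes was 15 of 18 for astrocytes, 18 of 22 for myelin, 12 of 12 for microglia and 13 of 17 for interneurons with each of the 3 scalings. The median scalings differ only by a constant per array, so their counts match nearly by construction. CA3 markers summed to 39905 to 44451 in WT, 36715 to 44535 in SPE and 33108 to 39515 in SPI, with 1 of 16 probes called higher and 4 lower. CA3 markers were thus measured in all groups. Dentate granule cell probes went from 175 to 305 in WT to 337 to 860 in SPI (2 of 4 called higher), CA1 probes from 327 to 411 to 441 to 548 (2 of 4), and endothelial and mural probes from 1435 to 1603 to 1813 to 2362 (3 of 15 higher, 1 lower). The defining markers Prox1 (dentate granule cells), Olig2 (oligodendrocyte lineage), P2ry12 (microglia), S100b (astrocytes), Gad2 (interneurons) and Cdh5 (endothelium) had no tested probe. Heat shock and stress probes, whose genes respond to tissue handling, summed to 20489 to 23910 in WT, 21745 to 26367 in SPE and 24576 to 27294 in SPI, so every SPI array lay above every WT array. Of these 20 probes 0 were called higher and 3 lower in SPI against WT, or 3 and 1 with scaling to the median of detected probes and 0 and 13 with scaling to the median of all probes. Over all 12140 probes those scalings called 2990 higher and 708 lower, and 24 higher and 5878 lower.

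Other genes of the activity programme were read from lists of the same class. Among other immediate early transcription factors, limma called 2 of 26 probes higher and 1 lower in SPI against WT (median difference -0.0043). Of all probes 26.1% were called. With scaling to the median of detected probes the counts were 8 and 0, beside 2990 higher and 708 lower of all 12140 probes. With scaling to the median of all probes they were 0 and 10, beside 24 and 5878. These counts over all probes also stand beside the SPI against WT counts of the lists below. Id1, an inhibitor of basic helix-loop-helix factors, rose by 0.79 ± 0.15 (adjusted p = 0.00219, limma), Tsc22d3, a glucocorticoid-induced leucine zipper protein, rose by 0.54 ± 0.13 with 1 of its 2 probes (0.00956; -0.68 under scaling to the median of all probes), and Nr4a3, an orphan receptor related to Nr4a1, fell by 0.51 ± 0.15 with 1 of 2 (0.0203), a sign that turned to 0.67 under scaling to the median of detected probes. The SPI mean of the Nr4a3 probe called lower was 4.37, near those of the undetected Nr4a1 (4.29) and Ier2 (4.44). Bhlhe40, a repressor of the clock, differed by 0.55 ± 0.19 without passing (limma adjusted p = 0.0501).

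Among other early effectors and feedback regulators 8 of 35 probes were called higher and 6 lower in SPI against WT (median 0.066), or 11 and 3, and 0 and 14, with the detected-probe and all-probe median scalings; 40% of the list was called, beside 26.1% of all probes (11.5% higher and 14.6% lower). Zfp36l1, which triggers decay of messengers with AU-rich elements, rose by 1.41 ± 0.15 (limma adjusted p = 6.91e-05), and Ier5l, a relative of the immediate early gene Ier5, by 1.31 ± 0.22 (0.00122). Plk3, a stress kinase, rose by 0.65 ± 0.14 (0.00452; -0.29 under scaling to the median of all probes), and the 3 probes of Btg1, an antiproliferative gene, disagreed (0.72 higher, -0.46 lower, 0.23 not called; limma adjusted p 0.0022, 0.0459 and 0.406). The Btg1 probe called lower had an SPI mean of 4.40, near that of the undetected Ier2 (4.44). In SPI against SPE 10 of the 35 probes were called higher and 1 lower, or 6 and 0, and 0 and 0, with those scalings. Over all 12140 probes 9.53% were called higher and 12.2% lower in that comparison. With those scalings 1492 of all probes were called higher and 327 lower, and 0 and 0. Ccn2, a matricellular growth factor, was higher by 1.26 ± 0.25 (0.00342 by limma) and Dusp14, another phosphatase and the gene called lower, had a difference of -0.60 ± 0.15 (0.0113).

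Late activity-regulated genes were split, with 6 of 30 probes higher and 7 lower (median 0.030), or 7 and 6, and 2 and 12, with those median scalings; 43.3% of the list was called, beside the same 26.1% of all probes. Cort, the interneuron peptide cortistatin and also a member of the interneuron list, rose by 2.29 ± 0.21 and 1.77 ± 0.21 with its 2 probes (limma adjusted p = 1.86e-05 and 0.000122). Tpbg, a membrane protein of neuronal processes, rose by 1.24 ± 0.21 (0.00132), whereas the synaptic genes Nptx1 and Nrn1 were lower, with differences of -1.62 ± 0.30 (0.00228) and -0.88 ± 0.14 (0.000827, limma).

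Upstream regulators, the kinases, channels and factors that drive the programme, had 4 of 44 probes higher and 4 lower (median -0.084), or 13 and 0, and 0 and 19, with those scalings; 18.2% of the list was called, beside 26.1% of all probes, and of all calls 80.9% and 0.407% were higher with those scalings. Mef2c, a calcium-responsive factor, rose by 1.13 ± 0.21 and 1.03 ± 0.25 with its 2 probes (limma adjusted p = 0.00192 and 0.00974; -0.068 and 0.033 under scaling to the median of all probes), and Camk2a, the alpha subunit of calcium/calmodulin kinase, rose by 0.43 ± 0.11 with 1 probe (0.0134; -0.54 under that scaling) while its other probe gave -0.52 ± 0.24 (0.123). Rps6ka5, a kinase of CREB and histone H3, was lower, with a difference of -0.97 ± 0.20 (0.00436), as was Ppp3r1, the regulatory subunit of calcineurin, at -0.37 ± 0.10 (0.0159, limma). In SPI against SPE the other 3 lists had 4 higher and 0 lower of 26 transcription factor probes, 5 and 6 of 30 late probes and 7 and 5 of 44 upstream probes, beside 9.53% of all probes called higher and 12.2% lower, and 0 of each under scaling to the median of all probes. In SPE against WT limma called none of the probes in these 4 lists, as over all probes. Differences named in these 4 lists without a turned sign kept their sign in all 3 scalings, except those of the Btg1 probes and of Bhlhe40.

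**Figure D4:**
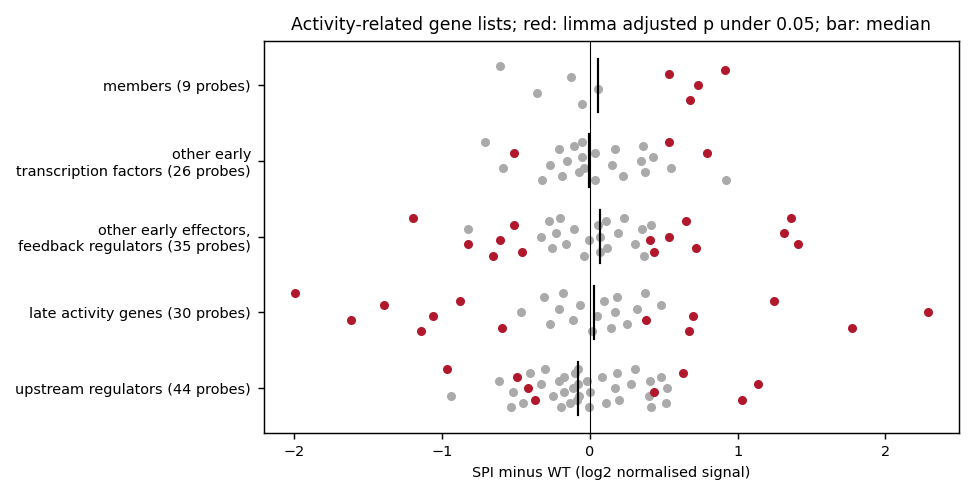
SPI minus WT log2 differences (x axis) of member probes and of 4 lists of activity-related genes (y axis, number of tested probes in brackets); each point is a probe, red points passed a limma adjusted p under 0.05, and black bars are medians. Each of the 4 lists holds called probes on both sides of 0, and all 4 red member points lie above 0, a side that turned under scaling to the median of all probes.

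Correlations between members over the 14 arrays are given as a description, with no test, since the arrays share brightness and group, and those between members called in SPI carry the group difference for which they were called. Gadd45g ILMN_2903945 and Ier3 had r = 0.90, Dusp1 and Gadd45g r = 0.85, Dusp1 and Ier3 r = 0.83, Arc and Dusp1 r = 0.80, and Fos and Egr1 r = 0.75. With group means removed, the 6 pairs among Arc, Dusp1, Gadd45g ILMN_2903945 and Ier3 ran from 0.20 (Arc with Ier3) and 0.40 (Arc with Gadd45g) over 0.58 (Arc with Dusp1), 0.63 (Dusp1 with Ier3) and 0.67 (Dusp1 with Gadd45g) to 0.78 (Gadd45g with Ier3). Egr1 then had 0.79 with Fos, 0.57 with Dusp1, 0.57 with Gadd45g, 0.51 with Ier3 and 0.10 with Arc. Fos had 0.34 with Dusp1, 0.15 with Gadd45g, 0.12 with Arc and 0.10 with Ier3. Within groups Egr1 thus varied with Dusp1, Gadd45g and Ier3 about as much as Arc did with Dusp1.

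The genes whose pattern over the 14 arrays was most like each member are named next by the same measure. They are the highest values picked from the 8671 named genes with a tested probe, leaving out the members. High values can arise from such a pick over so few arrays, and no chance level was computed. Fos was nearest to Nr4a2 (r = 0.81), Glrx2 (0.80) and Egr4 (0.78), of which Nr4a2 and Egr4 are themselves immediate early transcription factors. By rank (Spearman) the correlations of Fos with these genes were 0.54, 0.75 and 0.70. Egr1 was nearest to Per2 (0.83), Dusp6 (0.82) and Commd6 (0.81), with rank correlations of 0.80, 0.68 and 0.75, and Dusp6 encodes another MAP kinase phosphatase. Junb was nearest to Abcf3 (0.80), Srebf2 (0.79) and Per1 (0.77). Arc was nearest to Prr7 (0.93), Sh3bp2 (0.89) and Tmem120a (0.89), Dusp1 to Tesk1 (0.93), Mlycd (0.87) and Fam126a (0.87), Ier3 to Kbtbd6 (0.97), Rab3gap1 (0.96) and Snrnp35 (0.96), Gadd45g to Sys1 (0.95), Csk (0.94) and Rplp0 (0.94), and Fosb to Stip1 (0.90), Hira (0.88) and Med22 (0.87).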

How the data were processed

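The authors deposited raw bead signal (intensity, linear scale) and a detection p-value per probe and array, and a table of normalised intensity. Per the submitters' processing notes BeadStudio was used; no source states how background was handled. The arrays carry 25697 probes, of which 23978 have 1 gene symbol and 1719 none, and 23962 matched RefSeq by Entrez ID with 0 symbols changed. Groups and animals came from the sample titles.

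Signals were background-corrected by normexp from the detection p-values (offset 16) and quantile-normalised to log2 with limma 3.58.1 in R 4.3.3, starting from the deposited intensity. Each of the 12140 probes with detection p under 0.05 on 4 or more of 14 arrays was fitted on 3 groups with the animal as a random block (duplicateCorrelation, consensus correlation 0.319) and tested with eBayes, two-sided, with Benjamini-Hochberg adjustment. Titles give the same animal number to both layers of 4 mice; deviations from group means of those pairs correlated at 0.119 to 0.648 over probes. The fit was tested on simulated data. The number of arrays limits the precision. Chips and scan runs are not given in the files, so no batch was fitted. The 14 arrays come from 10 mice.

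The members, gene lists and tests were chosen with earlier results of these data known. All probes of the 10 members were described. From each other activity list, counts and up to 4 genes per comparison with the smallest p were named, and for likeness the 3 genes outside the members with the highest r over 14 arrays. Alternatives covered background correction, scaling, filter, block, samples in the fit, array weights, brightness and single arrays.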

Additional observations from a re-analysis of the deposited data

Results flagged for a closer look

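In 3 of 27 groups of 4 or 5 arrays the highest or lowest array stood apart from the others by Dixon's criterion, which chance meets in about 1 in 20 groups. They were Egr1 on the WT array of animal 142 (11.75, next 11.17), Ier3 on the SPE array of animal 148 (8.41, next 7.56) and Gadd45g ILMN_2744890 on the same SPE array (5.16, next 6.01). That SPE array is among the 3 dimmest, at a mean raw signal of 279.

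In 3 member probes the difference of SPI from WT was not equal to that of SPE from WT by the limma test of SPI against SPE, which is that difference: Dusp1 at 0.55 (adjusted p = 0.0112), Gadd45g ILMN_2903945 at 0.49 (0.0444) and Ier3 at 0.56 (0.0277). In the 4 mice with both layers each was higher in SPI in 4 of 4 with quantile normalisation, and in 2 (Dusp1), 1 (Gadd45g) and 2 (Ier3) of 4 with scaling to the median of all probes. Of all probes 15.5% were higher in all 4 mice with quantile normalisation, a share not counted under the other scaling. The paired fit, with the animal as a fixed block over the 4 pairs, called 0 of the 3 by limma (adjusted p = 0.0661, 0.169 and 0.0900).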

How the results depend on the processing

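Of 756 alternative values for the 27 probe differences, 665 kept their direction and side of the threshold, 45 changed sign, 40 lost the call with the sign kept and 6 gained it. SPE against WT gave 0 calls under each alternative. Under scaling to the median of all probes, SPI minus WT was -0.65 (Arc), -0.52 (Dusp1), -1.07 (Egr1), -0.47 (Gadd45g ILMN_2903945) and -0.28 (Ier3), with 5902 probes called (24 higher, 5878 lower) and 3 members called, all lower; Dusp1 in SPE minus WT was -0.096; SPI minus SPE was -0.66 (Arc), -0.42 (Dusp1), -0.90 (Egr1), -0.52 and -0.32 (Gadd45g), -0.40 (Ier3) and -0.91 (Junb), with 0 probes and 0 members called. Under scaling to the median of detected probes, chosen after seeing the data, SPI minus WT was 0.22 (Fos), 0.26 (Fosb) and 0.19 (Gadd45g ILMN_2744890), SPE minus WT 0.052 (Egr1), SPI minus SPE 0.45 (Fos) and 0.48 (Fosb), with 1 member called; 80.9% of SPI against WT calls were higher, against 44.2% with quantile normalisation and 0.407% with all probes. Gadd45g ILMN_2744890 in SPI minus WT was 0.021 with the deposited normalised values, 0.022 with no correction of background and 0.31 without animal 148. Array weights gave -0.12 (Egr1, SPI minus WT), 0.046 and -0.068 (Fos and Junb, SPI minus SPE).

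With mean signal as covariate 577 probes and 0 members were called in SPI against WT and 873 and 0 in SPI against SPE, with Fos at 0.46 and 0.53 and Junb in SPI minus SPE at -0.096. SPI against SPE gave 1538 probes and 1 member without a filter, 1344 and 1 without the animal block, 450 and 0 with the animal as a fixed replicate block, 1482 and 1 with only the 2 groups, and 1596 and 1 without the 3 dimmest arrays, where Fos was 0.22 and Junb -0.033; Egr1 in SPI minus WT was -0.063 there and -0.085 without animal 148. The causes were not tested.

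With single arrays left out, member calls ran from 3 to 5 in SPI against WT (2285 to 3652 of all) and from 0 to 3 in SPI against SPE (1077 to 3025), the lowest without SPI 148; 1 member was left without SPE 146, 165 or 166. Differences in SPI minus WT ran from -0.082 to 0.18 (Egr1), -0.54 to 0.043 (Fos), -0.36 to 0.30 (Gadd45g ILMN_2744890) and -0.23 to 0.013 (Junb), in SPE minus WT from -0.10 to 0.11 (Egr1) and -0.44 to 0.041 (Fos), and in SPI minus SPE from -0.057 to 0.15 (Egr1) and -0.34 to 0.28 (Fos). The faint SPI arrays limit what can be read of dim probes such as Fosb.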
